A study of Mus musculus with 18 samples.

Results

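Cells make cholesterol and fatty acids from acetyl-CoA, and 30 genes of these routes were followed in mouse kidney tubular epithelial cells, out of 55487 gene rows in the count table. The members are named genes of sterol and fatty acid synthesis that the SREBP transcription factors are known to control. They were chosen by function and not by a rule on a measured value, though with earlier results of these data known. They were found by symbol through their Ensembl identifiers. All 30 were found and all 30 passed the filter on low counts, so no member was dropped. They comprise 18 enzymes of sterol synthesis, 8 enzymes of fatty acid synthesis and desaturation, and 4 genes of control and transport.

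As background, sterol synthesis runs from acetyl-CoA through mevalonate and isoprenoid units to squalene, which is closed into a ring and trimmed to cholesterol. Fatty acid synthesis turns citrate-derived acetyl-CoA into palmitate, which elongases and desaturases then modify. SREBP proteins are held in the endoplasmic reticulum by INSIG proteins while sterols are plentiful, and when sterols run low they are released and act on the promoters of these genes. The liver X receptors work in the other direction, since they answer to oxidised sterols and switch on sterol export. In the kidney, tubular cells are known mainly for burning fatty acids, and lipid droplets build up in injured tubules.

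The data are 3′ end counts (QuantSeq) from 18 libraries of im-TEC, a single conditionally immortalized line whose SV40 large T antigen is temperature-sensitive and was induced by interferon-γ. All groups share that antigen, and that induction had been stopped before seeding, per the labels. The 6 groups, with 3 libraries each, were control, TGFβ at 10 ng/mL, nicotinamide (NAM) at 1 mM, TGFβ+NAM, S-adenosyl methionine (SAM) at 0.5 mM, and TGFβ+SAM, all for 48 h. TGFβ is a cytokine that drives fibrosis, and NAM and SAM are both substrates of the methylating enzyme NNMT. Nothing in the labels says that replicates were separate cultures, so p-values measure the spread between these libraries, which may be technical.

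Libraries held 4171170 to 7717626 reads in genes. The smooth muscle actin gene Acta2, a standard TGFβ response, rose from a mean of 83.7 to 1033 CPM (reads scaled to a common library size), and the mean of Nnmt was 30.3 CPM in control, 31.1 in TGFβ and 19.4 in SAM. Of 10 tubular epithelial markers, 8 passed the filter. The summed level of the list was 1658 to 1726 CPM in control, 1839 to 1906 in SAM and 625.3 to 690.2 in TGFβ. Most of it came from Aqp1, with means of 1031, 1267 and 105.6 CPM in these groups. Krt8 went the other way, with means of 99.4, 64.9 and 189.2 CPM. By the test described below, 1 of the 8 was called higher and 2 lower in SAM (5.02% and 6.79% of all tested genes). In TGFβ, 1 was called higher and 5 lower (9.7% and 9.74%). Endothelial markers summed to at most 1.38 CPM and adipocyte markers to at most 0.469 CPM in any library. Immune markers summed to 12.0 to 15.4 CPM in control, 20.6 to 34.1 in SAM and 5.73 to 8.33 in TGFβ, and Cd68 was the only one that passed the filter. Fibroblast markers summed to 6.72 to 8.62 CPM in control, 2.66 to 3.19 in SAM and 124.1 to 134.4 in TGFβ, mostly from the collagen gene Col1a1, and Pdgfra, Dcn and Lum did not pass the filter. These marker levels move with the same treatments as the members, and their part in the results was not tested. In bulk RNA, fewer cells of a type and less RNA per cell cannot be told apart.

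A pair of facts about the labels bears on every SAM result. The library numbers run on through the 12 libraries without SAM, leave out 6, and resume with the 6 libraries that received SAM, so whatever that gap stands for and SAM itself cannot be told apart. Reads outside genes made up 26 to 27% in control libraries and 27.9 to 28.2% in SAM libraries, and the part of this difference in the results was not tested. The treatment tags of SAM replicates 2 and 3 also read DIM. and LUN. where their titles read SAM, so counts that rest on them are given with and without both libraries.

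Promoters of 6 members are shown. By the test described below, Cyp51, Msmo1, Ebp and Acly were called higher in TGFβ and lower in SAM, and Elovl6 was called lower in TGFβ. Hmgcs1 is shown because its window holds the sterol core described here. Fdps was also called higher in TGFβ and lower in SAM, but no RefSeq window was held for it. Each stretch runs from 200 bases before to 20 bases after a RefSeq start site in GRCm38.p6, on the strand of the gene, 5′ to 3′. Capitals mark CCAAT or its reverse complement ATTGG, the word that the factor NF-Y binds, and TCACNCCAC, a core of the sterol response element, where N is any base. Cyp51 had the smallest p of any member under SAM. Hmgcs1 is the single member with the sterol core among those with a RefSeq window, Msmo1 and Ebp carry the NF-Y word more than once, and Acly and Elovl6 changed in opposite directions under TGFβ and show neither word in the stretch.
Hmgcs1: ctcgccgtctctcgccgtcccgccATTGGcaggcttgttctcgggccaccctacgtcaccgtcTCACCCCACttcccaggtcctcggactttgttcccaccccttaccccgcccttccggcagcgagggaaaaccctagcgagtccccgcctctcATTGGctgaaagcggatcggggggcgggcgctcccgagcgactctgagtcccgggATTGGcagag
Cyp51: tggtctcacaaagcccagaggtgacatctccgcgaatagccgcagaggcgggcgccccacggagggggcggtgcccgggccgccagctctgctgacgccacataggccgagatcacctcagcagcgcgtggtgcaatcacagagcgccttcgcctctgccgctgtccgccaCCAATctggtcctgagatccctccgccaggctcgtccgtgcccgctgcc
Msmo1: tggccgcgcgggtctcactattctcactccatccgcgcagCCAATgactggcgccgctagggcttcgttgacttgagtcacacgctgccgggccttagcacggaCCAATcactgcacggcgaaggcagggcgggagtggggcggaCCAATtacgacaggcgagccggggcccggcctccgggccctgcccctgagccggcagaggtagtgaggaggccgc
Ebp: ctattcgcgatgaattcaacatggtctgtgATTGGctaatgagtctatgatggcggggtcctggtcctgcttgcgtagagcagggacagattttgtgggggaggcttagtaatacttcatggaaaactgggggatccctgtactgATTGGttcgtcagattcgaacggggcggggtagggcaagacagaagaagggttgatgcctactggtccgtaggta
Acly: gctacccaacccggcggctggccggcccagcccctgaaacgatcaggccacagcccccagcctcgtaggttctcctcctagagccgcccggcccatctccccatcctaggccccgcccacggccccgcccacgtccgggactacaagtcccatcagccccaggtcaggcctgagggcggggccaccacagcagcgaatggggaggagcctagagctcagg
Elovl6: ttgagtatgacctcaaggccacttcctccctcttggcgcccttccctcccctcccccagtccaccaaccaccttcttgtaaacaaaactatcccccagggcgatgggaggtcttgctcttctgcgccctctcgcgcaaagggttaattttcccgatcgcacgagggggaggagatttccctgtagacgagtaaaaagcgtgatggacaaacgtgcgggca
The Hmgcs1 stretch lies at chr13:119690151-119690370 on the plus strand and the Elovl6 stretch at chr3:129532186-129532405, also plus. Those of Cyp51 (chr5:4104678-4104897), Msmo1 (chr8:64733559-64733778), Ebp (chrX:8193493-8193712) and Acly (chr11:100527981-100528200) are on the minus strand.

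RefSeq windows of 300 bases, from 250 before to 50 after a start, were held for 23 of the 30 members, the others being Fdps, Fdft1, Sqle, Stard4, Scd1, Scd2 and Fads1. The word CCAAT, on either strand, was in a window of 19 of those 23 genes (82.6%). It was in 37.4% of all 32851 windows and in 43.5% of the 9296 tested genes with a window. The Sp1 word GGGCGG was also in 19 of 23 (82.6%), against 35.7% of windows and 70.3% of tested genes. The E-box CACGTG was in 4 of 23 (17.4%), against 7.15% and 11.8%. The core TCACNCCAC was in 1 of 23 (4.35%), against 1.24% and 1.36%. The 4 genes without CCAAT were Acat2, Acaca, Elovl6 and Fads2, and the 1 match of Acly lies after the start, outside the printed stretch. Words were searched one at a time on both strands, so a base could belong to matches of more than 1 word. A match describes letters only, and 3′ counts do not show which start site a cell used.

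**Figure D1:**
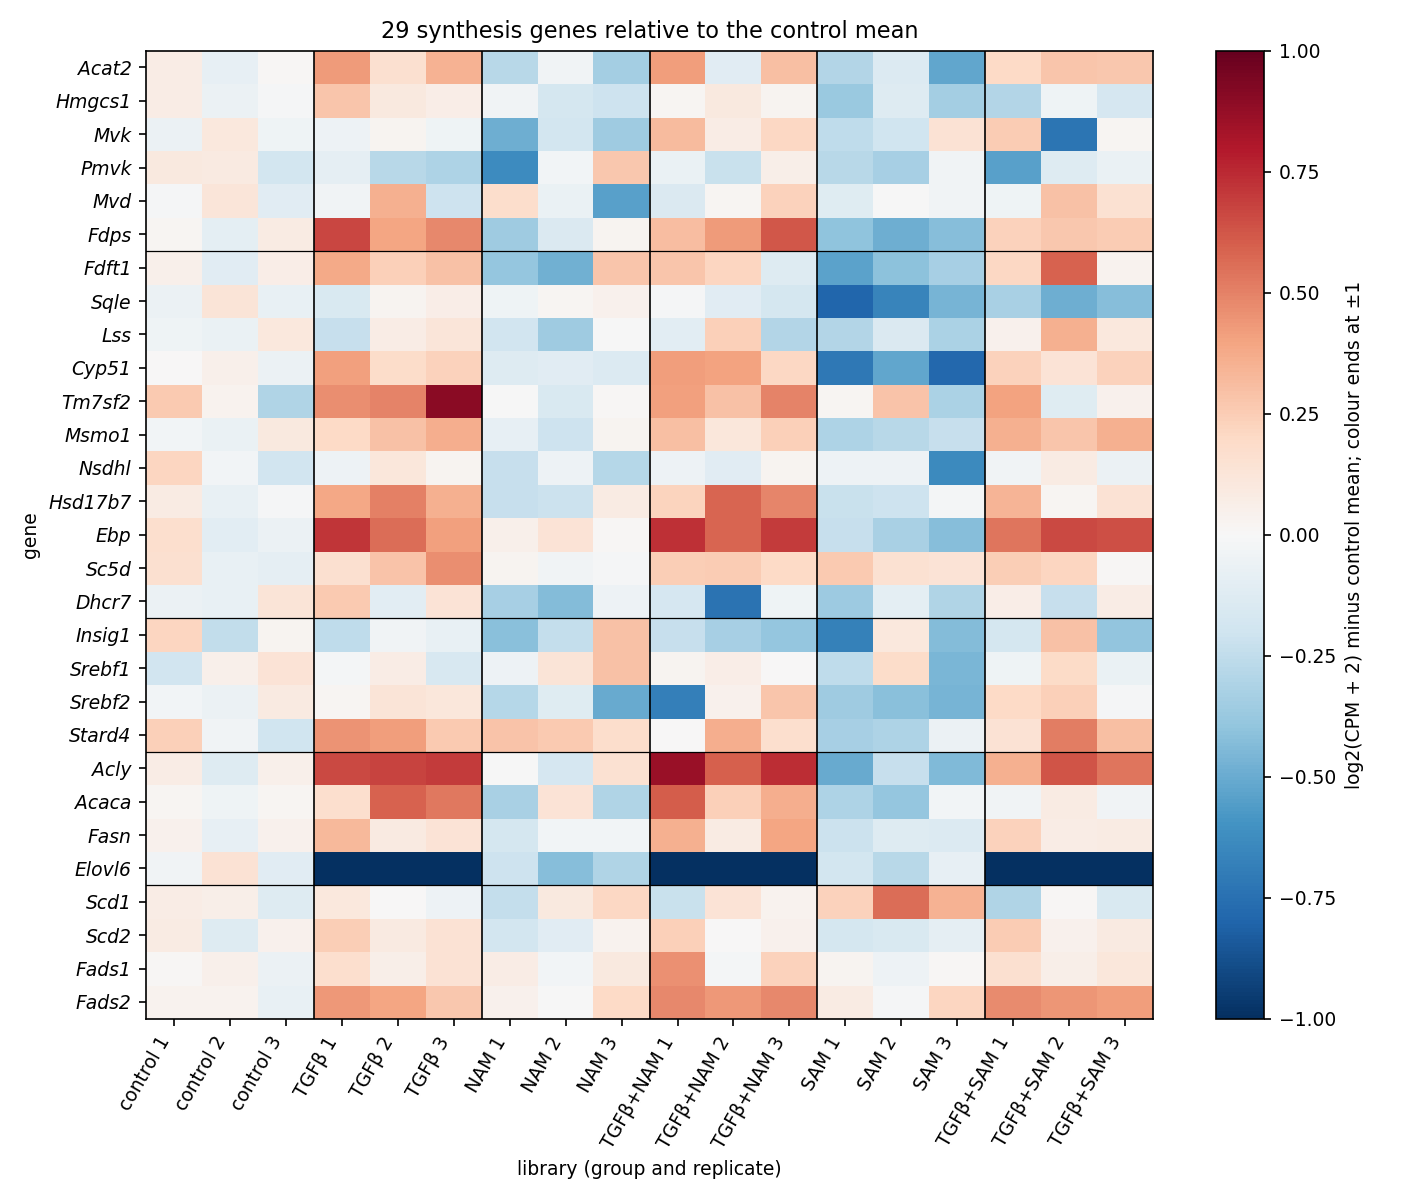
Each cell is the level of a gene (rows, grouped by role) in 1 library (columns) as log2(CPM + 2) minus the mean of the 3 control libraries, red above and blue below, with colours ending at ±1. Elovl6 is at the blue end in all 9 libraries with TGFβ, Acly and Ebp are red in those 9, and Cyp51 and Sqle are blue in the 3 SAM libraries. Idi1, with 134 reads in all libraries together, is left out.

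Under TGFβ the sterol enzymes as a group stood above control, and under SAM below it. Their summed level was 1152 to 1210 CPM in the 3 control libraries, 1368 to 1420 in TGFβ and 920.6 to 981.8 in SAM, so neither group overlapped control. It was 1275 to 1284 CPM in TGFβ+SAM, 1070 to 1112 in NAM and 1344 to 1377 in TGFβ+NAM. NAM thus also lay below every control library, although 0 members were called there by the test described below. Hmgcs1, Msmo1 and Cyp51 weighed most in the sum, with control means of 234.9, 183.2 and 162 CPM. All 3 groups with TGFβ stood above all 3 without it. The 8 fatty acid enzymes summed to 1363 to 1430 CPM in control, 1592 to 1696 in TGFβ, 1310 to 1413 in SAM and 1595 to 1667 in TGFβ+SAM. For them SAM overlapped control, NAM did too at 1332 to 1478 CPM, and TGFβ+NAM reached 1566 to 1804 CPM.

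**Figure D2:**
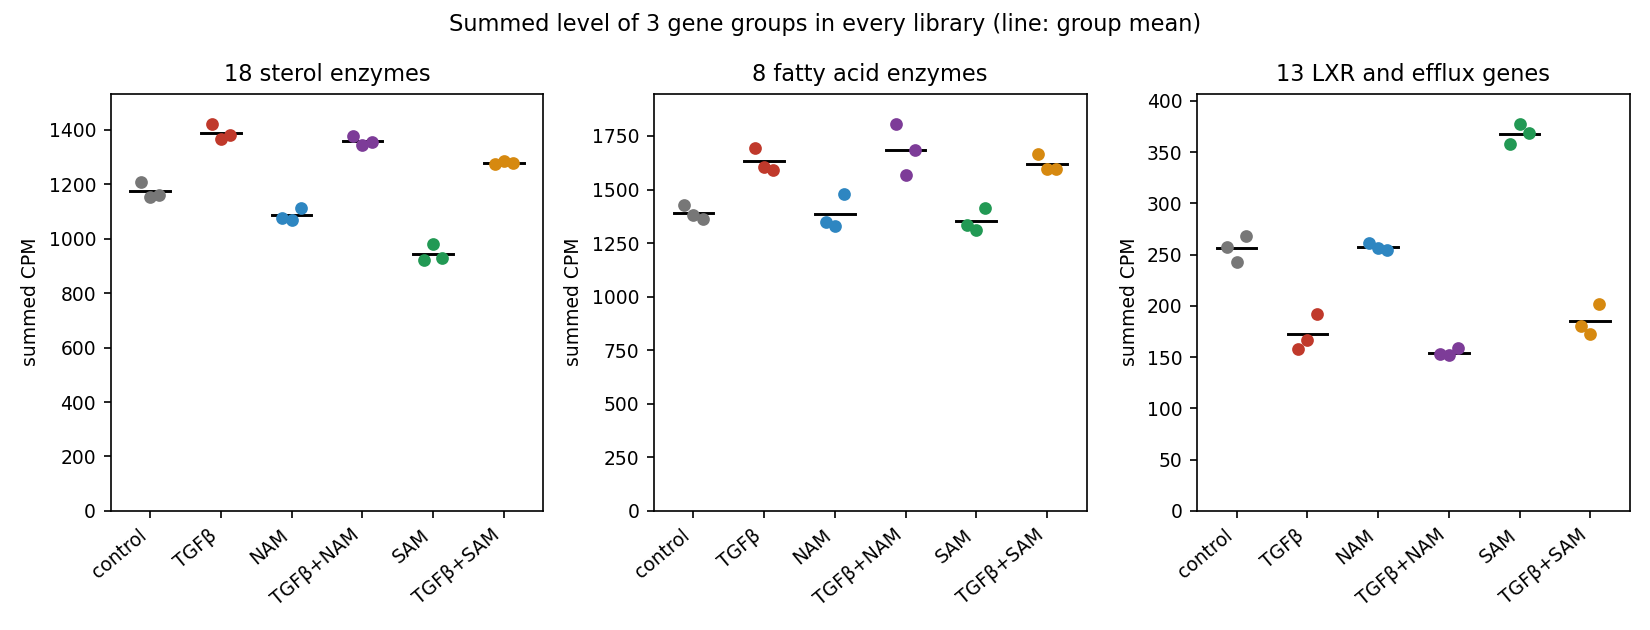
Summed CPM of the sterol enzymes, the fatty acid enzymes and the listed liver X receptor and efflux genes (y axes, from 0) in every library by group, with lines at the group means. The sterol enzymes are lowest in SAM, at 920.6 to 981.8 CPM, and the liver X receptor and efflux genes are highest there, at 357.6 to 377 CPM.

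A gene was called where the edgeR quasi-likelihood test across all 13469 tested genes gave a Benjamini-Hochberg adjusted p under 0.05. In TGFβ against control, 9 of the 30 members were called higher and 1 lower, where 9.7% of all tested genes were called higher and 9.74% lower. The members' median log2 change was 0.16, beside 0.01 over all tested genes, and 22 were above 0. In SAM against control, 0 members were called higher and 8 lower, where 5.02% of all tested genes were called higher and 6.79% lower. Their median was -0.26, beside 0.00 over all genes, and 27 of 30 were below 0. Both comparisons use the same 3 control libraries. Libraries of the groups did not overlap for 16 members higher and 1 lower in TGFβ (18.2% and 18% of all tested genes), and for 1 higher and 13 lower in SAM (15.4% and 16.2%). With SAM replicates 2 and 3 left out, 2 members were still called lower, Cyp51 and Sqle. Without control replicate 1 or SAM replicate 3 the SAM count was 3, without control replicate 3 or SAM replicate 1 it was 4, and without SAM replicate 2 it was 5. The TGFβ count of 9 was 5 without control replicate 2.

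**Figure D3:**
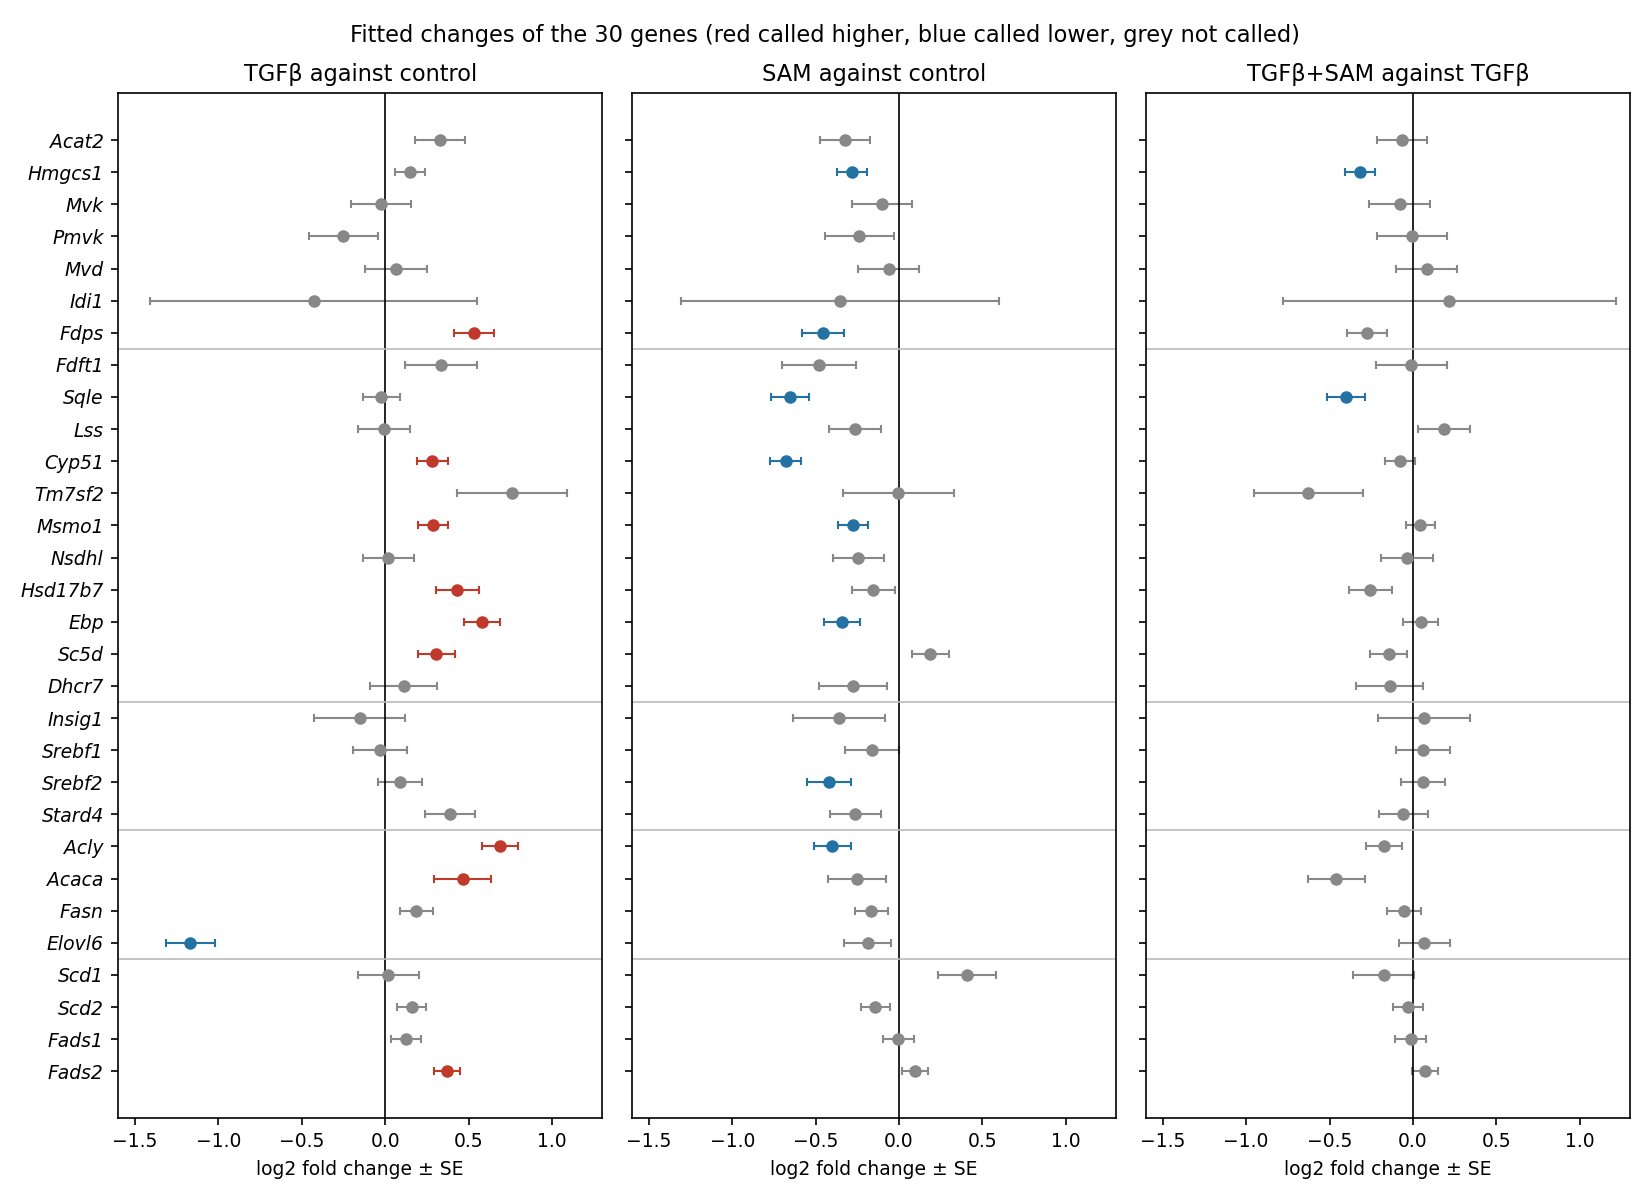
Log2 fold change ± SE of the 30 genes (y axis, ordered by role) in TGFβ against control, SAM against control and TGFβ+SAM against TGFβ, in red where called higher, in blue where called lower and in grey where not called. Points of the sterol genes lie mostly right of 0 in the first panel and left of it in the second, and Elovl6 stands apart at -1.17 in the first.

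The counts by role that follow stand beside the shares of all tested genes called. These were 9.7% higher and 9.74% lower in TGFβ, and 5.02% and 6.79% in SAM. The mevalonate steps include 7 members. Of these, 1 was called higher in TGFβ (median 0.07) and 2 lower in SAM (median -0.28), and all 7 were below 0 in SAM. Fdps makes farnesyl diphosphate, where the sterol branch leaves the other isoprenoid routes. Its 3 control libraries held 58.9, 54.2 and 61.8 CPM, against 93.5, 77.1 and 81.8 in TGFβ and 43.6, 41.0 and 42.8 in SAM. The 3 groups did not overlap: Fdps rose in TGFβ by 0.53 ± 0.12 on the log2 scale (adjusted p = 0.000997) and fell in SAM, with -0.46 ± 0.13 (adjusted p = 0.0109). In TGFβ+SAM the 3 libraries lay close together, at 68.6, 70.5 and 69.8 CPM, above control and below TGFβ, and the difference from TGFβ was -0.27 ± 0.12 (adjusted p = 0.182). The SAM call ended without control replicate 3 (adjusted p = 0.0511) and without SAM replicates 2 and 3 (0.24).

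Hmgcs1, the synthase that joins acetyl-CoA and acetoacetyl-CoA ahead of mevalonate, was the gene whose promoter holds the sterol core printed above. Its libraries were at 247, 225 and 233 CPM in control, 181, 214 and 185 in SAM, 285, 251 and 246 in TGFβ and 191, 228 and 209 in TGFβ+SAM. SAM lay below control and TGFβ+SAM below TGFβ with no overlap, whereas TGFβ and control overlapped. Hmgcs1 fell under SAM, with a log2 change of -0.28 ± 0.09 relative to control (adjusted p = 0.0356) and of -0.32 ± 0.09 relative to TGFβ (adjusted p = 0.0242), and gave 0.15 ± 0.09 in TGFβ relative to control (adjusted p = 0.281). The SAM call ended without any one of control replicates 1, 2 and 3 (adjusted p = 0.156, 0.0547 and 0.0731), SAM replicate 1 (0.155) or SAM replicate 3 (0.146), and without SAM replicates 2 and 3 together (0.121). The call within TGFβ ended without TGFβ replicate 1 (0.168) or TGFβ+SAM replicate 1 (0.154).

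The other 5 mevalonate members were not called in TGFβ or SAM against control. Acat2, which condenses acetyl-CoA, was at 0.33 ± 0.15 in TGFβ (adjusted p = 0.129) and -0.32 ± 0.15 in SAM (adjusted p = 0.176), with no overlap of libraries in either. Mvk and Pmvk phosphorylate mevalonate in turn, and gave -0.03 ± 0.18 and -0.25 ± 0.21 in TGFβ. Mvd, which decarboxylates the product to isopentenyl diphosphate, gave 0.07 ± 0.18. Idi1, the isomerase of that product, had too few reads to be read either way, with an SE of 0.98 in TGFβ. Acat2 has a close relative in the mouse genome, and no source used here says how reads with several matches were counted, so its values are uncertain.

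From squalene to the finished ring there are 11 members, of which 5 were called higher in TGFβ (median 0.29) and 4 lower in SAM (median -0.28). Cyp51 removes a methyl group from lanosterol, the first ring-closed sterol, and lies at chromosome 5, 4081145 to 4104746 on the minus strand (GRCm38, GENCODE M21). It was at 163, 168 and 156 CPM in control and 97.8, 112 and 93.1 in SAM, a log2 change of -0.68 ± 0.10 (adjusted p = 1.24e-06), the smallest p of any member in that comparison. It was at 216, 185 and 190.4 CPM in TGFβ and 190.1, 179 and 191 in TGFβ+SAM. So every SAM library stood below every control library, while TGFβ+SAM overlapped TGFβ, with a difference of -0.08 ± 0.09 (adjusted p = 0.707). The rise in TGFβ over control was 0.28 ± 0.09 (adjusted p = 0.0263). That call ended without control replicate 1 (adjusted p = 0.0661), control replicate 3 (0.122) or TGFβ replicate 1 (0.18), and without the low-count filter (0.0666). The SAM call held under each of the 13 alternatives run. Cyp51 shares 166 bases with Akap9 on the opposite strand, which had 27131 reads in all libraries, and since no source used here gives the strand setting, its values are uncertain to that extent.

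Sqle, squalene epoxidase, adds oxygen to squalene before the ring closes and is known as a control point of the route. Its libraries were at 84.1, 95.8 and 83.3 CPM in control, 78.7, 89.2 and 91.6 in TGFβ and 84.7, 88.8 and 90.2 in NAM, which overlapped one another. They were at 49.8, 54.7 and 62.9 CPM in SAM and 69.6, 62.0 and 64.7 in TGFβ+SAM, below every library without SAM. Sqle changed by -0.66 ± 0.11 between SAM and control (adjusted p = 5.28e-05) and by -0.40 ± 0.11 between TGFβ+SAM and TGFβ (adjusted p = 0.0208). The first held under each of the 13 alternatives run. The second ended without TGFβ replicate 2 (adjusted p = 0.0735), TGFβ replicate 3 (0.087) or TGFβ+SAM replicate 2 (0.0972). Against control, TGFβ gave -0.02 ± 0.11 (adjusted p = 0.927).

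Ebp moves a double bond in the sterol ring late in the route. It was at 83.7, 69.2 and 71.3 CPM in control, 124, 111 and 99.5 in TGFβ, 63.0, 58.9 and 55.0 in SAM and 109, 119 and 118 in TGFβ+SAM. TGFβ with or without SAM stood above every control library, and SAM below. The rise was 0.58 ± 0.11 in TGFβ (adjusted p = 6.19e-05), which held under each of the 13 alternatives run. The fall in SAM was -0.34 ± 0.11 (adjusted p = 0.034), and that call ended without control replicate 1 (adjusted p = 0.233), SAM replicate 2 (0.0812) or SAM replicate 3 (0.152), without the low-count filter (0.0538) and without SAM replicates 2 and 3 (0.475).

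Msmo1 oxidises the methyl groups at carbon 4 of the ring, and its promoter stretch above carries the NF-Y word 3 times. It was at 179, 174 and 196 CPM in control, 210.1, 224 and 236 in TGFβ, 147, 150.4 and 156 in SAM and 234, 222 and 235 in TGFβ+SAM. Control, TGFβ and SAM did not overlap, and TGFβ+SAM overlapped TGFβ. Msmo1 rose by 0.29 ± 0.09 in TGFβ (adjusted p = 0.0167) and fell in SAM, with -0.28 ± 0.09 (adjusted p = 0.0339). The TGFβ call ended without control replicate 1 (adjusted p = 0.0644), control replicate 2 (0.0946) or TGFβ replicate 3 (0.0779). The SAM call ended without any library of that comparison except control replicate 2, at 0.0632 to 0.15, without the low-count filter (0.0559) and without SAM replicates 2 and 3 (0.226).

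Hsd17b7, which reduces a ketone left on the ring, was at 57.2, 51.2 and 53.6 CPM in control and 71.3, 77.5 and 69.5 in TGFβ, with no overlap. It rose by 0.43 ± 0.13 (adjusted p = 0.0118), a call that ended without control replicate 2 (adjusted p = 0.063) or TGFβ replicate 2 (0.0667). In SAM it gave -0.16 ± 0.13 (adjusted p = 0.51). Sc5d, a late desaturase of the ring, rose by 0.31 ± 0.11 in TGFβ (adjusted p = 0.0474). That call ended, among other settings, without control replicate 2 (0.171), control replicate 3 (0.193), TGFβ replicate 2 (0.0866) or TGFβ replicate 3 (0.236), without the low-count filter (0.126) and without SAM replicates 2 and 3 (0.0712). It was the single sterol enzyme above 0 in SAM, at 0.19 ± 0.11 (adjusted p = 0.311).

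Of the remaining ring enzymes, Fdft1, which makes squalene, gave 0.34 ± 0.22 in TGFβ and -0.48 ± 0.22 in SAM, neither called, with libraries that overlapped control in neither. Its 2040 reads share 774 bases of gene with Ctsb on the opposite strand, which had 20628 reads, so its values are uncertain. Lss, the cyclase that closes the ring, gave -0.01 ± 0.16 and -0.27 ± 0.16. Nsdhl, the partner of Msmo1 in removing methyl groups, gave 0.02 ± 0.16 and -0.24 ± 0.16. Dhcr7, the last reductase of one branch, gave 0.11 ± 0.20 and -0.28 ± 0.20. None of these was called in either comparison. Tm7sf2, a ring reductase with 757 reads in all, was 0.76 ± 0.33 in TGFβ with no overlap of libraries (adjusted p = 0.105), and overlaps Vps51 on the same strand by 532 bases.

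**Figure D4:**
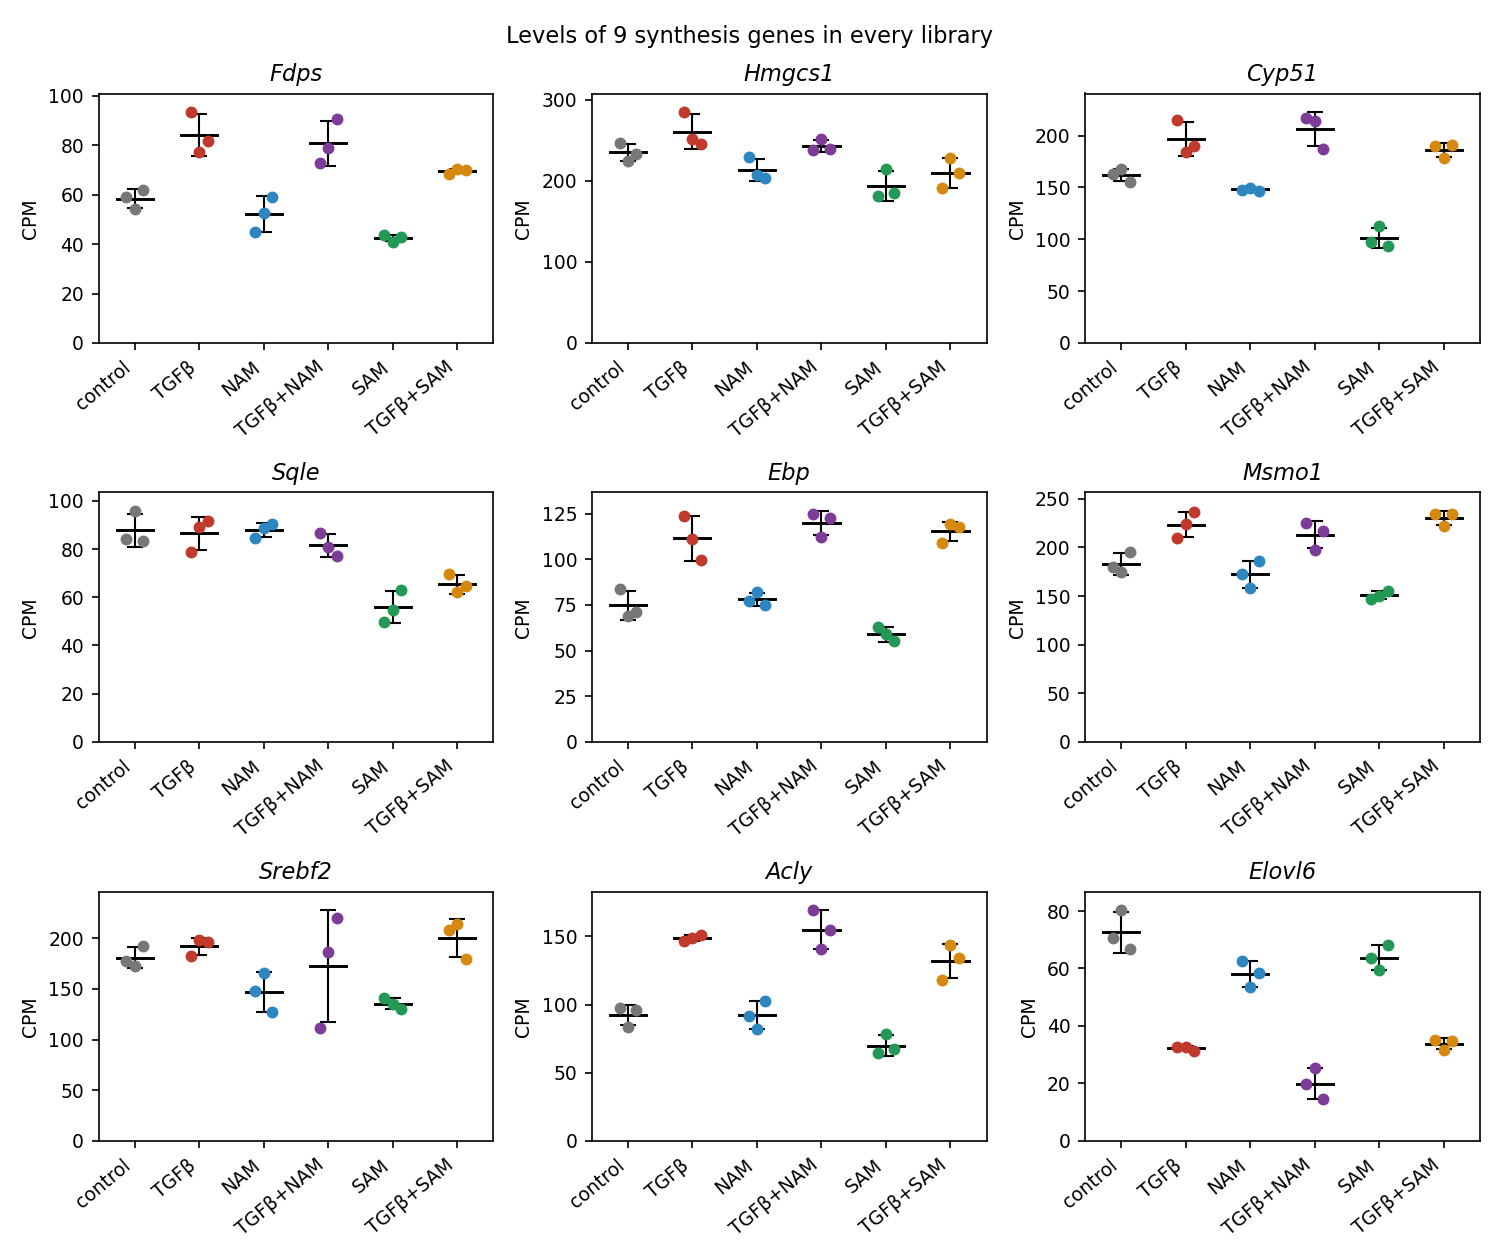
Level in CPM (y axes, from 0) of 9 genes in every library by group, with points for libraries, lines for means and bars for ± 1 SD (n = 3). Cyp51, Sqle, Ebp and Srebf2 have their lowest mean in SAM, the means of Cyp51, Ebp, Msmo1 and Srebf2 in TGFβ+SAM stand above control, that of Sqle does not, and Elovl6 is low in every group with TGFβ.

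None of the 4 control and transport genes was called in TGFβ against control, and 1 was called lower in SAM. Srebf2 encodes SREBP-2, the form known mainly for driving sterol synthesis. It was at 177, 173 and 192 CPM in control, 183, 198 and 196 in TGFβ, 141, 135 and 130.0 in SAM, 208, 214 and 179 in TGFβ+SAM, 148, 166 and 127 in NAM and 112, 186 and 219.8 in TGFβ+NAM. SAM lay below every control library, TGFβ overlapped control, and the TGFβ+NAM libraries were spread from below the SAM libraries to above all others. The log2 change was -0.42 ± 0.13 in SAM (adjusted p = 0.0304) and 0.09 ± 0.13 in TGFβ (adjusted p = 0.726). The SAM call ended without any one of the 6 libraries compared (adjusted p = 0.0549 to 0.115), in DESeq2 (0.124) and without SAM replicates 2 and 3 (0.374). It shares 2110 bases with Gm49502 on the same strand, which had 672 reads against 19162.

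Srebf1 encodes SREBP-1, the form known mainly for driving fatty acid synthesis. It was at 31.3, 37.3 and 39.7 CPM in control, 35.4, 38.0 and 31.9 in TGFβ and 29.8, 41.1 and 25.7 in SAM. It was at 34.7, 39.6 and 44.5 CPM in NAM, 36.7, 37.8 and 36.1 in TGFβ+NAM and 34.7, 41.3 and 34.3 in TGFβ+SAM. Each group overlapped the others compared with it, and the changes of -0.03 ± 0.16 in TGFβ and -0.16 ± 0.16 in SAM were not called. The former was above 0 without control replicate 3 or TGFβ replicate 3. Srebf1 shares 109 bases with Rai1 on the opposite strand, which had 5172 reads against 4088. Insig1, the sterol-dependent anchor that holds SREBP back and is itself one of its targets, was at 15.5, 10.7 and 13.3 CPM in control, 10.6, 12.7 and 12.3 in TGFβ and 7.44, 14.2 and 9.14 in SAM. It was at 9.28, 10.8 and 16.5 CPM in NAM, 10.8, 9.94 and 9.51 in TGFβ+NAM and 11.3, 16.5 and 9.47 in TGFβ+SAM. Its changes of -0.15 ± 0.27 in TGFβ and -0.36 ± 0.27 in SAM were not detectable at its 1319 reads. Stard4, which carries cholesterol between membranes, gave 0.39 ± 0.15 in TGFβ with no overlap of libraries (adjusted p = 0.0644) and -0.26 ± 0.15 in SAM (adjusted p = 0.303). Without control replicate 1 its change in TGFβ was called (0.53, adjusted p = 0.026), as it was when only the compared groups were fitted (0.0441).

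Among the 4 fatty acid synthesis genes, members changed in both directions under TGFβ. Acly, which makes cytosolic acetyl-CoA from citrate and so feeds both routes, was at 97.4, 83.9 and 95.8 CPM in control and 147, 149 and 151 in TGFβ. Every TGFβ library was above every control library, and Acly rose by 0.69 ± 0.11 (adjusted p = 3.27e-06), a call that held under each of the 13 alternatives run. It was at 64.2, 78.3 and 67.4 CPM in SAM and 118, 143 and 134 in TGFβ+SAM. SAM libraries lay below all control libraries, with a change of -0.40 ± 0.11 (adjusted p = 0.0116). The SAM call ended without control replicate 1 (adjusted p = 0.0649), SAM replicate 1 (0.0731) or SAM replicate 3 (0.0543), and without SAM replicates 2 and 3 (0.0592).

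Elovl6, the elongase that extends palmitate to stearate, moved the opposite way and by more than any other called member. It lies at chromosome 3, 129532355 to 129638495 on the plus strand (GRCm38, GENCODE M21). Its libraries were at 70.6, 80.4 and 66.7 CPM in control, 32.5, 32.8 and 31.5 in TGFβ, 35.3, 31.8 and 34.6 in TGFβ+SAM and 19.7, 25.5 and 14.5 in TGFβ+NAM. It was at 63.6, 59.4 and 68.1 CPM in SAM and 62.5, 53.5 and 58.4 in NAM. All 9 libraries with TGFβ stood below all 9 without it. The change in TGFβ against control was -1.17 ± 0.15 (adjusted p = 3.39e-08), and it held under each of the 13 alternatives run. In SAM against control it was -0.19 ± 0.14 (adjusted p = 0.432). Elovl6 shares 1671 bases with Gm43072 on the same strand, which had 92 reads against 5416.

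Acaca, the acetyl-CoA carboxylase that commits carbon to fatty acids, rose by 0.47 ± 0.17 in TGFβ (adjusted p = 0.049). That call ended, among other settings, without control replicate 1 (adjusted p = 0.099), control replicate 2 (0.134), control replicate 3 (0.107), TGFβ replicate 2 (0.212) or TGFβ replicate 3 (0.146), without the low-count filter (0.0976) and without SAM replicates 2 and 3 (0.0584). Fasn, the synthase that builds palmitate, gave 0.19 ± 0.10 in TGFβ (adjusted p = 0.209) and -0.17 ± 0.10 in SAM (adjusted p = 0.324), with no overlap of libraries in either.

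Of the 4 desaturases, 1 was called in TGFβ and 0 in SAM. Fads2, which starts the desaturation of polyunsaturated fatty acids, was at 476, 476 and 439.8 CPM in control, 628, 611 and 561 in TGFβ and 491, 459 and 538 in SAM. TGFβ stood above control with no overlap and SAM overlapped control. The rise in TGFβ was 0.37 ± 0.08 (adjusted p = 0.000448) and held under each of the 13 alternatives run, and SAM gave 0.10 ± 0.08 (adjusted p = 0.507). Fads1, its partner in the same route, gave 0.13 ± 0.09 and 0.00 ± 0.09. Scd1 and Scd2 place the first double bond in saturated fatty acids. Scd2 gave 0.16 ± 0.09 and -0.14 ± 0.09, and Scd1 0.02 ± 0.18 and 0.41 ± 0.18, none of them called. Scd1 was the 1 member whose SAM libraries all stood above control (adjusted p = 0.135). These genes belong to a family of close copies, so the same doubt applies to them.

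The comparison of TGFβ+SAM with TGFβ asks what SAM did in cells that also received TGFβ. There 0 members were called higher and 2 lower, Sqle and Hmgcs1, where 3.07% of all tested genes were called higher and 4.25% lower. The median was -0.05 beside -0.01 over all genes. Without any one of TGFβ replicates 1, 2 and 3 or TGFβ+SAM replicates 1 and 2, 1 member was called lower. Acaca gave -0.46 ± 0.17 with no overlap (adjusted p = 0.0974).

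The comparison of TGFβ+SAM with SAM asks what TGFβ did in cells given SAM. In TGFβ+SAM against SAM, 14 members were called higher and 2 lower, where 14.2% of all tested genes were called higher and 14.2% lower. Both groups lie within the later library numbers. The 4 smallest p-values belonged to Cyp51 (0.88 ± 0.10, adjusted p = 5.69e-10), Ebp (0.97 ± 0.11, adjusted p = 1.79e-09), Acly (0.91 ± 0.11, adjusted p = 7.38e-09) and Msmo1 (0.61 ± 0.09, adjusted p = 6.16e-07). The other members called higher were Fdft1, Fdps, Stard4, Acat2, Srebf2, Lss, Fads2, Hsd17b7, Fasn and Scd2, from 0.81 down to 0.27. Fdft1 was not called without TGFβ+SAM replicate 2 (adjusted p = 0.0551). Fasn was not called without SAM replicate 1 (0.076) or TGFβ+SAM replicate 1 (0.11), nor Scd2 without SAM replicate 1 (0.0564), SAM replicate 2 (0.0501) or TGFβ+SAM replicate 1 (0.12). Lss was not called without SAM replicate 1 (0.0768), SAM replicate 3 (0.0897) or TGFβ+SAM replicate 2 (0.155), nor Hsd17b7 without SAM replicates 1 or 2 (0.142 and 0.135) or TGFβ+SAM replicates 1 or 3 (0.236 and 0.078). The Hsd17b7 call also ended with every library kept, among others without the low-count filter (0.077) and in the compared groups alone (0.0708). Called lower were Elovl6, at -0.91 ± 0.14, and Scd1, at -0.56 ± 0.18. Without SAM replicates 2 and 3, the counts were 8 higher and 1 lower, as Srebf2 (adjusted p = 0.0753), Acat2 (0.0666), Fasn (0.108), Scd2 (0.116), Hsd17b7 (0.147), Lss (0.155) and Scd1 (0.338) were no longer called. Scd1 was not called without SAM replicate 2 (0.0897) or TGFβ+SAM replicate 1 (0.0714).

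The interaction asks whether the TGFβ effect differed with and without SAM. It was called for 1 of the 30 members, higher, where 0.802% of all tested genes were called higher and 0.631% lower. That member was Cyp51. Its TGFβ effect was 0.88 with SAM and 0.28 without, a difference of 0.60 ± 0.13 (adjusted p = 0.00784). Without SAM replicates 2 and 3 the difference was 0.66 and no longer called (adjusted p = 0.0577). Of the 30 members 22 were above 0, with a median of 0.21 beside 0.00 over all genes. Srebf2 gave 0.48 ± 0.19 (adjusted p = 0.271), and it was called without the low-count filter (0.0495), in the compared groups alone (0.0258) and when NAM replicate 3 was left out together with TGFβ+NAM replicate 1 (0.017). Msmo1 gave 0.32 ± 0.13 (adjusted p = 0.271) and Ebp 0.39 ± 0.15 (adjusted p = 0.28). Sqle gave 0.25 ± 0.16 (adjusted p = 0.618), and Scd1 lay on the other side at -0.58 ± 0.25 (adjusted p = 0.379).

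NAM alone had no called member. In NAM against control, 0 of 30 were called either way by edgeR, where 0% of all tested genes were called higher and 0.00742% lower. Before adjustment, 2 members and 722 of all genes had a p under 0.05. DESeq2 likewise called 0 members, among 7 genes in all. The median was -0.12, beside 0.00 over all genes, and 23 of 30 members were below 0. Libraries did not overlap for 0 members higher and 4 lower (7.14% and 6.36% of all tested genes). The 4 were Mvk at -0.36 ± 0.18, Srebf2 at -0.30 ± 0.13, Elovl6 at -0.32 ± 0.14 and Cyp51 at -0.13 ± 0.09. In TGFβ+NAM against TGFβ, edgeR called 0 members, where 0.0297% of all genes were called higher and 0.052% lower, 2 members had an unadjusted p under 0.05, and DESeq2 called 1 lower. Elovl6 was lower in every TGFβ+NAM library than in every TGFβ library, with a difference of -0.69 ± 0.16 (adjusted p = 0.0704). That difference was called without TGFβ+NAM replicate 2 (-0.91, adjusted p = 0.0304), without the low-count filter (0.0219) and in DESeq2 (0.0141).

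In TGFβ+NAM against NAM, 11 members were called higher and 1 lower, where 10.9% of all tested genes were called higher and 11% lower. The 4 smallest p-values belonged to Elovl6 (-1.54 ± 0.15, adjusted p = 9.51e-11), Acly (0.75 ± 0.11, adjusted p = 4.95e-07), Ebp (0.62 ± 0.11, adjusted p = 1.67e-05) and Fdps (0.63 ± 0.12, adjusted p = 0.000102). The others called higher were Acaca, Mvk, Hsd17b7, Cyp51, Acat2, Fads2, Fasn and Msmo1, from 0.59 down to 0.31. Acaca was not called without NAM replicates 1 or 3 (adjusted p = 0.0596 and 0.0512) or TGFβ+NAM replicate 1 (0.0614), nor Mvk without NAM replicate 1 (0.0853) or TGFβ+NAM replicate 1 (0.0551). Acat2 was not called without NAM replicates 1 or 3 (0.0896 and 0.107), TGFβ+NAM replicates 1 or 3 (0.148 and 0.0958), or in the compared groups alone (0.0679), nor Msmo1 without NAM replicate 2 (0.0714). Leaving out NAM replicate 3 together with TGFβ+NAM replicate 1 took Acat2 from 0.45 to 0.27 (adjusted p = 0.344) and also ended the calls of Acaca (0.40, adjusted p = 0.194) and Mvk (0.50, adjusted p = 0.105). Srebf2 was called higher without TGFβ+NAM replicate 1 (0.47, adjusted p = 0.000552), Fads1 without TGFβ+NAM replicate 2 (0.0143) and Fdft1 without NAM replicate 3 (0.0459). The interaction of TGFβ and NAM was called for 0 members and for 0% of all genes higher and 0% lower by edgeR. DESeq2 likewise called 0. At an unadjusted p under 0.05 it had 2 members and 462 of all genes.

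Genes around the 2 routes were taken from 6 lists. Of all tested genes, 9.7% were called higher and 9.74% lower in TGFβ, and 5.02% and 6.79% in SAM. Each list count below stands beside these shares, and some are near them. The list of other sterol and isoprenoid genes holds enzymes and also the receptor gene Gpr146. It had 0 of 13 called higher and 2 lower in TGFβ, and 0 higher and 3 lower in SAM (median -0.25). Among those lower in SAM were Lbr, a sterol reductase of the nuclear envelope (-0.45 ± 0.12, adjusted p = 0.0116), and Nus1 of dolichol synthesis (-0.37 ± 0.11, adjusted p = 0.0192). Both calls ended without SAM replicates 2 and 3 (adjusted p = 0.313 and 0.173). The Lbr call also ended without control replicate 1 (0.0561) or SAM replicate 3 (0.0712), and that of Nus1 without control replicates 1 or 3 (0.0595 and 0.104) or SAM replicates 1 or 3 (0.0661 and 0.0687). Lower in TGFβ were Acat1, a mitochondrial thiolase, at -1.03 ± 0.12, and the receptor gene Gpr146 at -2.65 ± 0.34.

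Liver X receptor targets and efflux genes had 9 of 13 that passed the filter. Of these, 0 were called higher and 4 lower in TGFβ (median -0.48), beside 9.7% and 9.74% of all tested genes. In SAM, 2 were called higher and 0 lower (median 0.59), beside 5.02% and 6.79%. The summed level of the list was 243.1 to 268.1 CPM in control, 357.6 to 377 in SAM, 158.4 to 192.4 in TGFβ and 172.4 to 202 in TGFβ+SAM. Abca2, with means of 99.5 CPM in control and 120.7 in SAM, and Pltp weighed most in this sum. Abca1, Abcg1 and Apoe weighed little, with means of 3.15, 3.17 and 2.94 CPM in control and 6.65, 6.10 and 3.01 in SAM. These 3 were not called in SAM, and the mean of Abcg1 in TGFβ was above control, at 5.29 CPM. Pltp, a phospholipid transfer protein, rose in SAM from a mean of 69.6 to 127.8 CPM (0.88 ± 0.12, adjusted p = 1.37e-06). Mylip, a ligase that degrades lipoprotein receptors, was at 12.97, 14.87 and 19.09 CPM in control, 29.5, 33.1 and 25.7 in SAM and 7.58, 6.91 and 7.86 in TGFβ. It rose in SAM (0.92 ± 0.20, adjusted p = 0.00163) and in TGFβ+SAM over TGFβ (1.13 ± 0.23), and fell in TGFβ (-1.07 ± 0.23). The SAM call ended without SAM replicates 2 and 3 (adjusted p = 0.0646). The lipid transporter Abca2 fell in TGFβ by 0.80 on the log2 scale.

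Of 18 genes of SREBP control and lipid sensing, 1 rose and 1 fell in TGFβ, and 1 rose and 0 fell in SAM. The riser in SAM was Lpin1, a phosphatidate phosphatase that also acts in the nucleus on SREBP, from 87.1 to 129.2 CPM (0.57 ± 0.10, adjusted p = 0.000101), and it rose in TGFβ+SAM over TGFβ too (0.40 ± 0.10). The latter call ended without TGFβ replicates 2 or 3 or TGFβ+SAM replicate 1 (adjusted p = 0.0749, 0.0614 and 0.0673). In TGFβ, the ubiquitin ligase gene Rnf145 rose by 0.34 ± 0.11, a call that ended without control replicate 2 (0.125), TGFβ replicate 1 (0.133) or TGFβ replicate 2 (0.104). Nr1h3, which encodes liver X receptor alpha and stands in both this list and the one before, fell from a mean of 5.27 to 1.39 CPM, a call that ended without control replicates 1 or 2 (0.0755 and 0.0808) or TGFβ replicates 1 or 2 (0.111 and 0.129).

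In the list of other fatty acid synthesis genes, 18 of 24 passed the filter, with 0 called higher and 4 lower in TGFβ and 0 higher and 2 lower in SAM. The elongase Elovl7 fell in TGFβ, like Elovl6, at -1.11 ± 0.16, as did the acyl-CoA synthetase Acsl5 (-0.58 ± 0.11). Mid1ip1, an activator of acetyl-CoA carboxylase, was at -0.31 ± 0.10 there, a call that ended without control replicates 2 or 3 (adjusted p = 0.107 and 0.118) or TGFβ replicates 2 or 3 (0.113 and 0.0735). Fads3, a relative of Fads1 and Fads2, fell in SAM by 0.68 on the log2 scale, from a mean of 142.5 to 89.1 CPM.

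In uptake, transport and storage, 18 of 20 passed the filter, with 5 called higher and 3 lower in TGFβ and 4 higher and 2 lower in SAM. Plin2, which coats lipid droplets, was at 134.2, 120.1 and 120.8 CPM in control and 354.7, 388.9 and 373.9 in TGFβ. It rose by 1.57 ± 0.10 (adjusted p = 5.33e-16), and in SAM it stayed at 94.6 to 121.0 CPM. Nceh1, which splits stored cholesterol esters, fell in TGFβ (-0.89 ± 0.11) and rose in SAM (0.57 ± 0.11), and Osbpl3, an oxysterol-binding relative, fell in TGFβ (-0.74 ± 0.09). In SAM, Vps13c, a lipid transfer protein, rose (0.78 ± 0.12, adjusted p = 8.86e-06) and the receptor Lrp1 fell (-0.59 ± 0.11, adjusted p = 0.00027).

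Of 17 genes of triglyceride and phospholipid synthesis, 0 rose and 4 fell in TGFβ, and 4 rose and 1 fell in SAM. Dgat1 and Dgat2, which complete triglycerides, both fell in TGFβ (-0.70 ± 0.16 and -1.53 ± 0.45). Dgat1 rose in SAM (0.46 ± 0.15), a call that ended without control replicates 1 or 3 (adjusted p = 0.161 and 0.111), SAM replicates 1 or 3 (0.0704 and 0.186) or SAM replicates 2 and 3 together (0.357). The Dgat2 call in TGFβ ended without TGFβ replicate 2 (0.0832) and in DESeq2 (0.0696). Chka, choline kinase, fell in TGFβ (-0.59 ± 0.11) and in SAM (-0.38 ± 0.11), the latter call ending without control replicate 2 (0.0927), SAM replicate 3 (0.0886) or SAM replicates 2 and 3 together (0.151). Ptdss2 of phosphatidylserine synthesis was at 0.48 ± 0.16 in SAM (adjusted p = 0.036), with adjusted p of up to 0.409 over the alternatives run.

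The same lists were followed in TGFβ+SAM against TGFβ, where 3.07% of all tested genes were called higher and 4.25% lower. There 1 gene of SREBP control, 1 liver X receptor target, 1 other fatty acid gene and 2 genes of uptake, transport and storage were called higher. Called lower were 1 other fatty acid gene and 1 gene of uptake, transport and storage. There were 0 calls among other sterol and isoprenoid genes and among triglyceride and phospholipid genes. Besides Lpin1 and Mylip, Gramd1a, which carries cholesterol from the plasma membrane inward, rose (0.78 ± 0.17, adjusted p = 0.00233), a call that held under each of the 13 alternatives run. Vps13c rose (0.51 ± 0.13, adjusted p = 0.00648), a call that ended without TGFβ replicate 1 (0.0563). Nceh1 fell (-0.36 ± 0.11, adjusted p = 0.0376), opposite to its rise in SAM against control, a call that ended without TGFβ replicates 1 or 2 (0.175 and 0.0702), TGFβ+SAM replicates 2 or 3 (0.207 and 0.0699) or SAM replicates 2 and 3 (0.0588). Mid1ip1 was at 0.32 ± 0.10, adjusted p = 0.0455, and its call ended in 10 of the 13 alternatives run. Among these were each of the 6 libraries left out (adjusted p = 0.0585 to 0.186), no low-count filter (0.055), the compared groups alone (0.0533) and SAM replicates 2 and 3 left out (0.0506). The acyl-CoA synthetase Acsl4 was at -0.44 ± 0.14, adjusted p = 0.0424, a call that ended, among other settings, without TGFβ replicates 1 or 2 (0.172 and 0.104) or any TGFβ+SAM replicate (0.0711 to 0.144).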

How the data were processed

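Reads per gene were deposited by the authors as 1 count table of 18 libraries, as whole numbers that were not normalized. STAR and HTSeq are named in the submitters' processing notes, without versions. Those notes list the build GRCh38, whereas the gene identifiers are those of mouse, so the annotation used for counting is not settled here. Strand setting and treatment of reads with several matches are not given in the sources used here. Reads in no feature (22.8 to 28.2% of each library) and ambiguous reads (0.607 to 0.779%) were left out of library sizes and tests. A symbol was found for 55141 of 55487 identifiers. Positions come from GENCODE M21 on GRCm38.

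The deposited counts were scaled by TMM and filtered with filterByExpr (minimum count 10), which left 13469 genes. One edgeR 4.0.16 quasi-likelihood model (R 4.3.3, limma 3.58.1) was fitted over all 6 groups, with two-sided tests, Benjamini-Hochberg adjustment within each comparison and a threshold of 0.05. The common biological coefficient of variation was 0.139. Standard errors are the absolute log2 fold change divided by the root of F. Interactions subtract the TGFβ effect without a supplement from that with it. CPM values use TMM-scaled library sizes, and log2 values in the heatmap add 2. With 3 libraries against 3, an exact permutation test of a single gene cannot go below p = 0.1, so none was used. The tests were tried on simulated counts first. Alternatives were DESeq2 1.42.0, its type of size factors in edgeR, no filter, the compared groups alone, a replicate block, SAM replicates 2 and 3 left out, NAM replicate 3 and TGFβ+NAM replicate 1 left out, and each library left out in turn. Members and lists were chosen with earlier results of these data known. Values in every library are given for Srebf1, Srebf2, Insig1 and up to 8 called members with the smallest p in the comparisons of TGFβ and SAM with control and of TGFβ+SAM with TGFβ. Up to 4 are named in the other comparisons by that rule, and up to 3 from each pathway list, of which 1 gene is not reported here; other names were chosen after their values were seen.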

Additional observations from a re-analysis of the deposited data

Results flagged for a closer look

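The response of Cyp51 to TGFβ differed between cells with and without SAM, by 0.60 ± 0.13 on the log2 scale in the edgeR interaction test (adjusted p = 0.00784, with a range of 0.000339 to 0.0577 over 19 alternatives). Without SAM, TGFβ libraries were at 184.5 to 215.5 CPM and control libraries at 155.6 to 167.9. With SAM, TGFβ+SAM libraries were at 178.6 to 190.7 CPM and SAM libraries at 93.1 to 112.4. The gap between the pairs thus lies mostly in the lower level of the 3 SAM libraries.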

How the results depend on the processing

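Of 1228 values of 94 genes by comparison under the alternatives, 1049 kept their direction and their side of the threshold, 173 kept their direction but were no longer called, and 6 changed sign. Those 6 were not called under any alternative. Srebf1 in TGFβ against control (-0.033 with all libraries) ranged from -0.126 to 0.033 with 1 library left out, and was 0.033 without control replicate 3 and 0.029 without TGFβ replicate 3. In TGFβ+SAM against TGFβ, Insig1 (0.066) ranged from -0.193 to 0.224, and was -0.017 without TGFβ replicate 1 and -0.193 without TGFβ+SAM replicate 2. Srebf1 (0.061) ranged there from -0.031 to 0.122, and was -0.004 without TGFβ replicate 3 and -0.031 without TGFβ+SAM replicate 2. With SAM replicates 2 and 3 left out, which leaves 1 SAM library that is assumed to vary like the other groups, 2 members were lower in SAM and 466 genes were called in all (1591 with every library). TGFβ+SAM against SAM then had 8 members higher, 1 lower and 2258 genes in all (3824), and the interaction with SAM 0 members and 63 genes (193). DESeq2 called 7 genes in NAM against control and, in TGFβ+NAM against TGFβ, 1 member lower and 34 genes. Without the low-count filter these were 15 genes, 1 member and 32 genes, and the interaction with SAM had 2 members. Fitting the compared groups alone gave 0 genes in TGFβ+NAM against TGFβ and 2 members in the interaction with SAM. Leaving out NAM replicate 3 and TGFβ+NAM replicate 1, the 2 libraries with the lowest share of reads in no feature, gave 20 genes and 2 members there. With 1 library left out at a time, members called ranged from 5 to 8 higher in TGFβ, 3 to 6 lower in SAM, 1 to 2 lower in TGFβ+SAM against TGFβ, 0 to 1 lower in TGFβ+NAM against TGFβ and 1 to 2 lower in TGFβ+SAM against SAM. All genes called ranged from 630 to 1068 in TGFβ+SAM against TGFβ and from 3 to 14 in TGFβ+NAM against TGFβ. The cause of these shifts was not tested, beyond the smaller number of libraries. Between groups, the deviations of libraries from their group mean correlated most for NAM replicate 3 and TGFβ+NAM replicate 1 (r = 0.264), and the cause was not tested. Same-numbered libraries did not deviate together (median r 0.004 over 45 pairs of libraries, 2 of them over 0.1), so the replicate number is not taken as a pairing. With it as a replicate block, members called were 7 higher and 1 lower in TGFβ, 8 lower in SAM, 2 lower in TGFβ+SAM against TGFβ, 13 higher and 2 lower in TGFβ+SAM against SAM, 11 higher and 1 lower in TGFβ+NAM against NAM, and 1 in the interaction with SAM. The block ended the calls of Acaca (adjusted p = 0.0589) and Sc5d (0.0508) in TGFβ, Hsd17b7 in TGFβ+SAM against SAM (0.0531), and Acsl4 (0.0513) and Mid1ip1 (0.0551) in TGFβ+SAM against TGFβ, and no other call followed. Read depth limits Idi1 (134 reads), Tm7sf2 (757) and Insig1 (1319) most.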
